A study of Homo sapiens with 4 samples.

Results

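The genes described here encode the collagens, the laminins, the netrins and the integrins. They were taken by gene symbol: every row of the deposited tables whose symbol is that of a collagen chain, a laminin chain, a netrin or an integrin subunit. No expression value was used in the choice. This gave 85 genes of 18398, made up of 43 collagen, 12 laminin, 4 netrin, 18 integrin alpha and 8 integrin beta genes. RNA came from the human liver cancer cell lines Huh1 and Huh7, both long established and derived from hepatocellular carcinoma. Each line was transfected with 15 nM of the control NCsiRNA or of CDCA8-1siRNA, a small interfering RNA against CDCA8, and was harvested at 48 h. There were 4 libraries, 1 for each line and siRNA, so no condition had a replicate.

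Collagen chains wind into triple helices that form fibrils, basement membrane networks or fibril-associated molecules. Laminins are cross-shaped trimers of an alpha, a beta and a gamma chain and are the main organisers of basement membranes, while netrins are secreted relatives of the laminin short arms. Integrins are the alpha/beta dimers through which cells hold on to these proteins. In normal liver the space between hepatocytes and sinusoids has a loose matrix without a continuous basement membrane. CDCA8 encodes borealin, a subunit of the chromosomal passenger complex that steers chromosome segregation and cytokinesis.

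In each line the control value is given first and that with CDCA8-1siRNA second. Values were in RPKM, that is, read numbers divided by transcript length and library depth, so levels of different genes can be set side by side. The libraries rested on about 12200000 to 13380000 reads each, as estimated from the value of 1 read. CDCA8 stood at 24.1 RPKM with NCsiRNA and 5.86 RPKM with CDCA8-1siRNA in Huh1, and at 51.5 and 7.36 RPKM in Huh7. The silenced libraries thus kept 24.3% and 14.3% of the control level. All 8 markers of the hepatocyte lineage that were looked up, albumin among them, were at 1 RPKM or more in every library. The endothelial markers CDH5, VWF and KDR stayed at or under 0.0247 RPKM. Of 5 leukocyte markers only CD68 reached 1 RPKM, and PTPRC, the defining one, lay between 0 and 0.417 RPKM. Fold changes were differences of log2(RPKM + 1), a scale that makes the changes of low genes smaller than the plain ratio.

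Of the 85 genes, 48 reached 1 RPKM in at least 1 library. In 24 of these the level was reached in both cell lines, in 9 in Huh1 only and in 15 in Huh7 only. The other 37 stayed under 1 RPKM throughout, the highest of them at 0.553 RPKM, and 4 were listed at 0 in all libraries (COL22A1, COL25A1, ITGAD and ITGB2, the last the shared beta chain of leukocyte integrins). No transmembrane collagen reached 1 RPKM, nor did ITGA4 or ITGA9, the alpha chains that bind VCAM1 and tenascins.

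The first comparison asked which of these genes changed when CDCA8 was silenced. NTN4, which encodes netrin-4, a basement membrane protein that binds the laminin gamma 1 chain, was at least 2-fold higher with CDCA8-1siRNA in both Huh1 and Huh7. LAMA3, the alpha chain of laminin-332, was at least 2-fold higher in Huh7 and 1.49-fold higher in Huh1 as a plain ratio. COL12A1 and COL5A2, a fibril-associated and a fibrillar collagen, were higher by a smaller amount in both lines on the log2(RPKM + 1) scale. As a plain ratio COL12A1 was 1.57-fold higher in Huh1, more than LAMA3. In Huh1, 1 of 33 genes of the set that had 1 RPKM in that line reached 2-fold, against 0.494% of all genes tested. In Huh7, 2 of 39 did, against 1.57% of all genes. On this scale no gene of the set was 2-fold lower in either line. These counts compare 1 library with 1 library and carry no test. With 0.1 RPKM added in place of 1 they became 2 in Huh1 and 6 in Huh7, each with 1 lower gene, ITGAL in Huh1 and COL2A1 in Huh7, both named after their values were seen.

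Huh1 and Huh7 were then taken as a pair of repeats in a limma fit with the cell line as a covariate. Its p-values rest on how alike the responses of the lines were, only in small part for the gene itself (1 residual degree of freedom). The larger part is a spread that limma takes from all genes (median prior degrees of freedom 8.29). A call thus does not mean that the lines responded by like amounts. The p-values hold nothing on the spread that repeated transfections would show. Of 24 genes of the set measured in both lines, 4 rose and 0 fell at an adjusted p under 0.05, against 10.2% of all 10357 genes in either direction and 6.03% in the upward direction. At an unadjusted p under 0.05 there were 6. The median log2 fold change of the 24 genes was 0.13 and that of all genes 0.03. A higher value with CDCA8-1siRNA was seen for 79.2% of the 24 genes and 55.1% of all genes. COL12A1, 1 of the 4 called, reached 1 RPKM in Huh1 only in the silenced library (0.865 and 1.36 RPKM). The same held for NTN1 in Huh7 (0.592 and 1.65 RPKM), which was not called. Both entered the fit only through the library where they were high, and both count among the higher genes. All 4 calls were lost without the minimum of 1 RPKM, where limma called 0 genes of the set and 0 in all, with adjusted p from 0.139 for NTN4 to 0.219 for COL12A1 (11 genes of the set at an unadjusted p under 0.05). Without the cell line as a covariate, limma also called 0 genes of the set and 0 in all (1 at an unadjusted p under 0.05). The 8 hepatocyte markers summed to 6491 and 5862 RPKM in Huh1 and to 6426 and 4645 RPKM in Huh7, and their part in these changes was not tested.

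**Figure D1:**
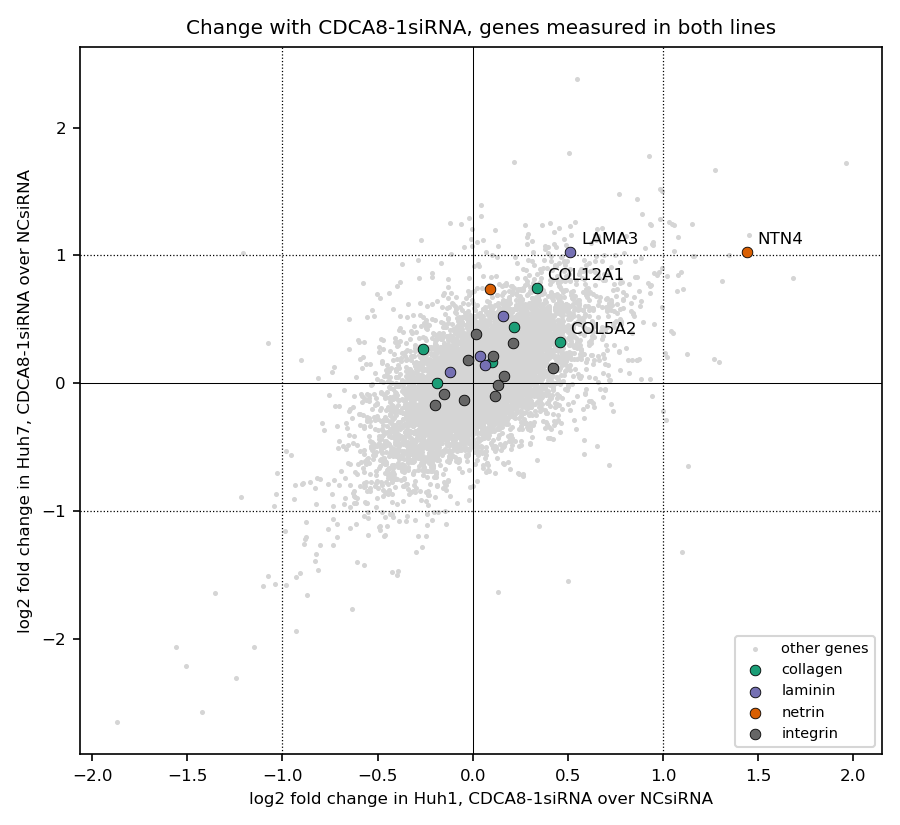
Log2 fold change with CDCA8-1siRNA in Huh1 (horizontal) against that in Huh7 (vertical), on the log2(RPKM + 1) scale, for the 10357 genes with at least 1 RPKM in both lines. Coloured points are the 24 collagen, laminin, netrin and integrin genes among them, names mark the 4 called by limma, and dotted lines mark 2-fold. NTN4 lies beyond the 2-fold line on both axes and LAMA3 only on the Huh7 axis.

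In every library NTN4 had the highest level of the netrins. NTN4 stood at 5.52 RPKM with NCsiRNA and 16.7 RPKM with CDCA8-1siRNA in Huh1, and at 3.67 and 8.50 RPKM in Huh7. Both silenced libraries lay above both control libraries, on about 162 reads in the lowest and 797 in the highest. The log2 fold change was 1.44 in Huh1 and 1.02 in Huh7, with an SD from read counting alone of 0.0889 and 0.111. Over both lines it was 1.23 (standard error 0.131, adjusted p = 0.00129 by limma). A heat map of the study already draws NTN4 among the genes changed in both lines, from the same libraries, so its rise is not independent evidence.

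NTN1, the axon guidance ligand of the receptors DCC and UNC5, stood at 1.18 and 1.32 RPKM in Huh1 and at 0.592 and 1.65 RPKM in Huh7. Its plain ratio of 2.79 in Huh7 exceeded that of NTN4, at 2.31, but the level was low and the log2 fold change was 0.09 in Huh1 and 0.74 in Huh7. Over both lines NTN1 was not called (log2 fold change 0.41, standard error 0.187, adjusted p = 0.200 by limma). NTN3 and NTN5 stayed at or under 0.0413 RPKM.

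The 250 bases before the annotated start of NTN4 are shown because NTN4 had the largest log2 fold change with CDCA8-1siRNA among the genes of the set that were tested. They lie at chr12:95790765-95791014 on the minus strand of GRCh38.p14, from the RefSeq promoter table, and capitals mark GGGCGG or its complement, the core of a GC box. The start is the RefSeq one that lies 6 bases from the GENCODE start of the transcript in the deposited tables.
NTN4: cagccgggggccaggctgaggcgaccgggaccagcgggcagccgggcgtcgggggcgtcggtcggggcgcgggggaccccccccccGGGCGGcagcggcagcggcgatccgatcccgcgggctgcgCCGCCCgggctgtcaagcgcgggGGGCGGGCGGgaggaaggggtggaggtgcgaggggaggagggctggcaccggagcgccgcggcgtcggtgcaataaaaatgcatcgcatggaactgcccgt
GGGCGG, searched on both strands with overlaps counted, was found in 45% of all 35116 windows of 300 bases in that table. Of the windows of the set, 45 of 79 held it. Some genes have several windows, and 37 of the 59 genes of the set with an entry had it in at least 1. The letters of an AP-1 site, TGACTCA on either strand, were absent from this stretch.

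Among the laminins with at least 1 RPKM in a line, LAMA3 had the largest log2 fold change with CDCA8-1siRNA in that line. It encodes the alpha 3 chain, which pairs with the LAMB3 product in laminin-332, the anchoring laminin of epithelia. LAMA3 stood at 7.46 RPKM with NCsiRNA and 11.1 RPKM with CDCA8-1siRNA in Huh1, and at 1.53 and 4.17 RPKM in Huh7. The silenced library was the higher one in each line, while both Huh7 libraries lay below both Huh1 libraries. The log2 fold change was 0.51 in Huh1 and 1.03 in Huh7, with counting SDs of 0.0705 and 0.109, and 0.77 over both lines (standard error 0.146, adjusted p = 0.0139 by limma). In Huh7 the values of LAMA3 and NTN4 lay just beyond 2-fold, and with quantile normalization both came to 0.99 on the log2 scale.

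LAMB3, the beta chain that joins LAMA3, was too low in Huh7 for the fit. It stood at 4.03 and 5.45 RPKM in Huh1 and at 0.0202 and 0.171 RPKM in Huh7, the latter on about 1 and 8 reads. In each line the silenced library was thus the higher one for LAMB3 as for LAMA3, with no test for LAMB3.

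The promoter window of LAMA3 held 2 matches to TGACTCA or its complement, the site of AP-1 factors, which 4.95% of all windows in the table held. Of the windows of the set, 3 of 79 held it, in 3 of the 59 genes with an entry. Only ITGA5 and LAMB3 of the other genes of the set with an entry had such a match. For LAMB3 it was in a window whose start lies 1092 bases from the GENCODE start of the transcript in the deposited tables. The LAMB3 windows nearer that start held none. The matches of LAMA3 lie 125 and 69 bases before its RefSeq start. Each is shown with its surroundings as 30 bases of the plus strand of GRCh38.p14, the match in capitals. The GENCODE start of the LAMA3 transcript in the tables lies 180 bases from the RefSeq start, a distance taken without its direction. If it lies before the RefSeq start, both matches fall inside that transcript. The first is at chr18:23872884-23872913 and the second at chr18:23872940-23872969. A match is a description of the letters and not of binding.
LAMA3 first match: ctggcacaggcTGACTCAtgtgtgaagttt
LAMA3 second match: ccttcctcaccTGAGTCAggcaggcccggg

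LAMB1, the most abundant laminin chain, stood at 96.7 and 108 RPKM in Huh1 and at 86.5 and 125 RPKM in Huh7. Both silenced libraries lay above both controls, but the change over both lines was not called (log2 fold change 0.34, standard error 0.101, adjusted p = 0.0622 by limma). Testing only genes of at least 5 RPKM, or using quantile normalization, put LAMB1 past the threshold. LAMC1, the gamma chain of most laminins, stood at 32.0 and 32.9 RPKM in Huh1 and at 57.3 and 66.8 RPKM in Huh7, and LAMB2 at 8.49 and 8.94 RPKM in Huh1 and 12.5 and 13.9 RPKM in Huh7. Neither was called (adjusted p = 0.436 for LAMC1 and 0.587 for LAMB2, limma).

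LAMA5, the alpha chain of laminin-511, stood at 5.34 and 4.84 RPKM in Huh1 and at 24.6 and 26.3 RPKM in Huh7. Its log2 fold change over both lines was -0.02 (standard error 0.110, adjusted p = 0.945 by limma). LAMA4, which builds laminin-411 of vessel and muscle basement membranes, stood at 9.95 and 12.5 RPKM in Huh1 and at 0.138 and 0.822 RPKM in Huh7. The Huh7 values of LAMA4 rest on about 11 and 65 reads, and the gene did not enter the fit.

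COL12A1 encodes a fibril-associated collagen that sits on the surface of type I collagen fibrils. It stood at 0.865 and 1.36 RPKM in Huh1 and at 25.1 and 42.7 RPKM in Huh7, higher in the silenced library of each line. In Huh1 only the silenced library reached 1 RPKM, so COL12A1 entered the fit through the library where it was high. Its log2 fold change was 0.34 in Huh1, 0.74 in Huh7 and 0.54 over both lines (standard error 0.130, adjusted p = 0.0321 by limma). COL5A2, the alpha 2 chain of type V collagen, which helps to start fibrils, stood at 11.9 and 16.7 RPKM in Huh1 and at 131 and 165 RPKM in Huh7. Its log2 fold change was 0.46 in Huh1, 0.32 in Huh7 and 0.39 over both lines (standard error 0.0912, adjusted p = 0.0292 by limma). The COL5A2 call was also lost when limma was run without a mean-variance trend (adjusted p = 0.0669).

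The other fibrillar collagens that reached 1 RPKM did so in 1 line each, apart from COL27A1, which stood at 9.03 and 9.78 RPKM in Huh1 and at 10.7 and 12.2 RPKM in Huh7 (adjusted p = 0.469 by limma). In Huh7, COL1A1 stood at 107 and 125 RPKM, COL1A2 at 31.4 and 56.9 RPKM, COL11A1 at 9.18 and 15.3 RPKM and COL3A1 at 1.89 and 4.14 RPKM, in each case with CDCA8-1siRNA second. The log2 fold changes in Huh7 were 0.22 for COL1A1, 0.84 for COL1A2, 0.68 for COL11A1 and 0.83 for COL3A1. COL2A1, the cartilage collagen, went the other way, at 1.29 and 0.570 RPKM in Huh7, a log2 fold change of -0.54. Of 7 fibrillar collagens at 1 RPKM in Huh7, 6 were higher and 1 lower with CDCA8-1siRNA. In the same libraries 54.5% of all 11565 genes and 76.9% of the 39 genes of the set were higher. These counts compare 1 library with 1 library and were not tested. The 2 chains of type I collagen, which assemble as a pair of COL1A1 chains with a COL1A2 chain, thus differed in size of change within the same pair of libraries. COL5A1, the partner of COL5A2 in type V collagen, was measured only in Huh1, at 2.45 and 3.42 RPKM.

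Of the FACIT and multiplexin collagens that were measured in both lines, COL16A1, COL18A1 and COL12A1, only the last was called. COL16A1 stood at 6.94 and 5.63 RPKM in Huh1 and at 13.1 and 15.9 RPKM in Huh7 (adjusted p = 0.989 by limma). COL18A1, the basement membrane collagen from which endostatin is cut, stood at 21.2 and 18.5 RPKM in Huh1 and at 76.6 and 76.5 RPKM in Huh7 (adjusted p = 0.580 by limma). COL14A1, another fibril-associated collagen, was measured in Huh7 only, at 18.1 and 18.4 RPKM, and so was COL9A2, at 3.58 and 3.88 RPKM.

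Of 11 integrin genes tested for the siRNA, 0 were called, beside 10.2% of all genes. ITGB1, the beta subunit shared by most matrix receptors, was the most abundant gene of the whole set, at 189 and 207 RPKM in Huh1 and 415 and 411 RPKM in Huh7. Its log2 fold change over both lines was 0.06 (standard error 0.0758, adjusted p = 0.671 by limma). ITGAV, the alpha subunit of vitronectin receptors, stood at 59.3 and 60.1 RPKM in Huh1 and at 90.8 and 119 RPKM in Huh7 (log2 fold change over both lines 0.20, adjusted p = 0.253 by limma). Its partner ITGB5 stood at 31.2 and 35.1 RPKM in Huh1 and 52.8 and 55.0 RPKM in Huh7.

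ITGA5, which forms the fibronectin receptor with ITGB1, stood at 18.1 and 17.8 RPKM in Huh1 and at 49.9 and 56.6 RPKM in Huh7. The laminin receptor subunit ITGA6 stood at 20.7 and 20.1 RPKM in Huh1 and at 52.0 and 47.3 RPKM in Huh7. Of the collagen receptor subunits, ITGA1 stood at 5.86 and 6.39 RPKM in Huh1 and 18.9 and 22.1 RPKM in Huh7, and ITGA2 at 6.24 and 5.31 RPKM in Huh1 and 10.2 and 8.92 RPKM in Huh7. Across these 4 alpha subunits the adjusted p from limma lay between 0.334 and 0.662, and the lines differed more than the siRNAs did.

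**Figure D2:**
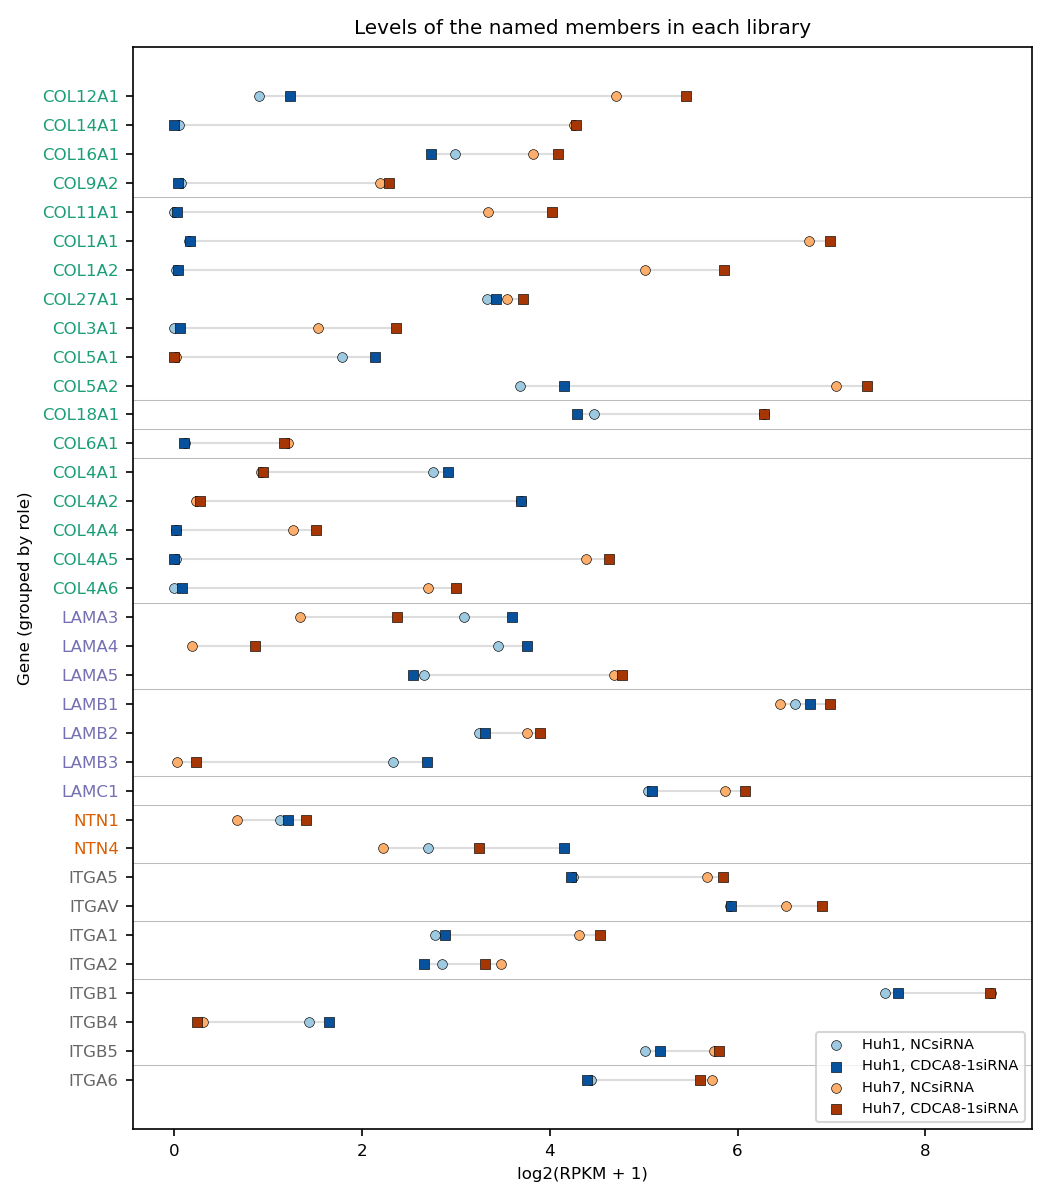
Levels of 35 named genes on the log2(RPKM + 1) scale (horizontal), 1 point per library, with collagens in green, laminins in purple, netrins in orange and integrins in grey letters. Circles are NCsiRNA and squares CDCA8-1siRNA, blue for Huh1 and orange to brown for Huh7. For most genes the blue and brown points lie in separate pairs, while for NTN4 both squares lie to the right of both circles.

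The second comparison set the 2 cell lines against each other, with the siRNA as a covariate in limma. Its p-values take the libraries of a line as repeats of that line (1 residual degree of freedom, median prior degrees of freedom 7.48). They hold nothing on the spread that repeated cultures of a line would show. Huh7 had far more fibrillar collagen RNA and a different set of type IV collagen and laminin alpha chains than Huh1. The summed RPKM of the 43 collagen genes was 77.7 and 83.5 in the Huh1 libraries and 466 and 582 in the Huh7 libraries. Of 48 genes of the set with 1 RPKM in any library, 20 were called higher in Huh7 and 7 lower, at an adjusted p under 0.05 and at least 2-fold. Over all 12148 genes, 16.8% were called higher and 9.90% lower. The line alone brought 71.2% of all genes under an adjusted p of 0.05, so that most of the choice rested on the fold.

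A gene that passed 1 RPKM only in the line where it was high had to differ, and 17 of the 27 calls were of this kind. Of the 24 genes with 1 RPKM in each line, 10 were called, against 19.5% of all genes under the same condition. These were COL12A1, COL5A2, LAMA5, COL18A1, ITGA1, ITGA5, ITGA6, COL16A1 and ITGB1, higher in Huh7, and LAMA3, lower in Huh7. In bulk RNA, fewer cells of a type and less RNA per cell cannot be told apart.

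**Figure D3:**
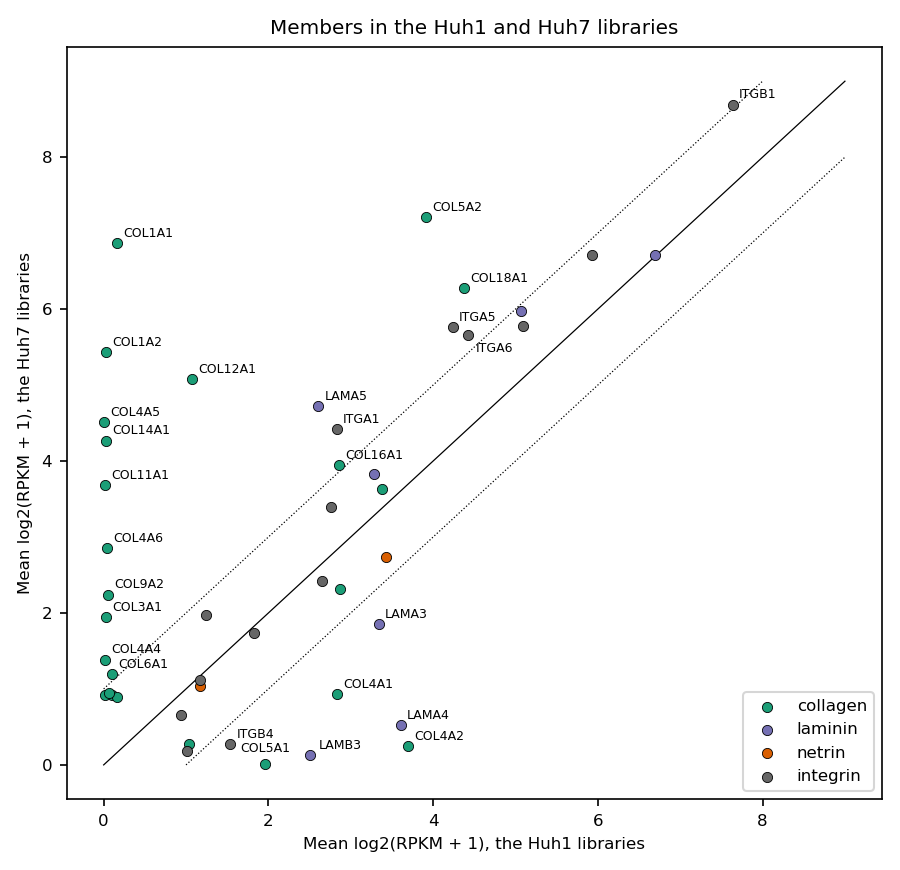
Mean log2(RPKM + 1) of the Huh1 libraries (horizontal) against that of the Huh7 libraries (vertical) for 47 of the 48 genes with at least 1 RPKM in any library. Names mark 26 called genes, the solid line is equality and the dotted lines are 2-fold. A column of collagen genes stands at the left edge, near 0 in Huh1 and up to COL1A1 in Huh7, and COL4A1, COL4A2, LAMA4, LAMB3 and COL5A1 lie along the lower edge.

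The 6 type IV collagen genes, which encode the network of basement membranes, split between the lines by genomic pair. COL4A2 stood at 11.9 RPKM in both Huh1 libraries and at 0.172 and 0.208 RPKM in Huh7, and COL4A1 at 5.78 and 6.55 RPKM in Huh1 and 0.891 and 0.925 RPKM in Huh7. COL4A5 stood at 0.00988 and 0 RPKM in Huh1 and at 20.0 and 23.8 RPKM in Huh7, and COL4A6 at 0 and 0.0577 RPKM in Huh1 and 5.53 and 7.01 RPKM in Huh7. COL4A1 and COL4A2 thus made up 99.7% and 99.4% of the type IV RPKM in Huh1 and 3.69% and 3.25% in Huh7.

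The mean of COL4A2 was 62.9 times and that of COL4A1 6.79 times as high in Huh1 as in Huh7. For COL4A5 and COL4A6 no ratio is given, since the Huh1 libraries held about 1 and 5 reads of them in all. The log2 differences, Huh7 minus Huh1, were -3.44 for COL4A2, -1.91 for COL4A1, 4.51 for COL4A5 and 2.81 for COL4A6, with no p given since each of these genes reached 1 RPKM only in the line where it was high. COL4A4 was also higher in Huh7, at 1.40 and 1.85 RPKM against 0.0145 RPKM in both Huh1 libraries. So was COL4A3, at 0.811 and 1.06 RPKM against 0.0369 and 0.0468 RPKM in Huh1. Its log2 difference was 0.89, under 2-fold on the log2(RPKM + 1) scale, which makes differences of such low genes smaller than the plain ratio. No ratio is given for COL4A3, since the Huh1 libraries held about 9 reads of it in all. The levels of COL4A1 and COL4A2 in Huh1, and those of COL4A5 and COL4A6 in Huh7, changed with CDCA8-1siRNA by a log2 fold change of 0.30 or less.

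Type IV collagen genes lie in pairs, head to head. Bases are shown for COL4A1 with COL4A2 and for COL4A5 with COL4A6, because both genes of each of these pairs were high in the same line. COL4A3 and COL4A4 stayed at or under 1.85 RPKM, and the stretch between them is not shown. Between the RefSeq starts of COL4A1 on the minus strand and COL4A2 on the plus strand lie 126 bases, at chr13:110307158-110307283 of GRCh38.p14, printed on the plus strand. Between those of COL4A6 and COL4A5 lie 379 bases for the nearer of 2 COL4A6 starts, and the 250 bases before the start of COL4A5, at chrX:108439588-108439837 on the plus strand, are printed. Capitals mark CCAAT or its complement.
COL4A1/COL4A2: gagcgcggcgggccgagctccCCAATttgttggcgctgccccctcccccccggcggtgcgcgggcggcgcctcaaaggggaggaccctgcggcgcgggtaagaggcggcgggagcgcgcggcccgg
COL4A5: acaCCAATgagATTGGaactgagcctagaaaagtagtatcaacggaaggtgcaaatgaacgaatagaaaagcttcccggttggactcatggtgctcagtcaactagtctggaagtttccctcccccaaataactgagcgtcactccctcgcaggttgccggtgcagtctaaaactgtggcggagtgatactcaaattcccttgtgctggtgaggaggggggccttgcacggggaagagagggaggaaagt
The stretch shared by COL4A1 and COL4A2 holds 1 match and the one before COL4A5 holds 2, and 34.6% of all windows in the table hold at least 1 on either strand. The GC content is 80.2% between COL4A1 and COL4A2 and 51.2% before COL4A5.

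The laminin alpha chains differed between the lines in a like way. LAMA4, LAMA3 and LAMA5 made up 43.7%, 32.8% and 23.5% of laminin alpha RPKM in Huh1 with NCsiRNA, while LAMA5 alone made up 93.6% in Huh7 with NCsiRNA. With CDCA8-1siRNA the share of LAMA5 was 17.0% in Huh1 and 83.7% in Huh7, and that of LAMA3 was 38.9% and 13.3%. Between the lines, LAMA5 was higher in Huh7 by a log2 difference of 2.12 and LAMA3 lower, with -1.48 (adjusted p = 5.14e-07 and 2.78e-05, limma). For LAMA4, at 1 RPKM only in Huh1, the log2 difference was -3.08. LAMB3 was lower in Huh7, with a log2 difference of -2.38. LAMB1 supplied between 87.3% and 89.6% of laminin beta RPKM in all libraries. The log2 difference of LAMB1 between the lines was 0.02 (adjusted p = 0.842 by limma), and its sign turned with upper quartile scaling and with the NCsiRNA libraries alone.

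**Figure D4:**
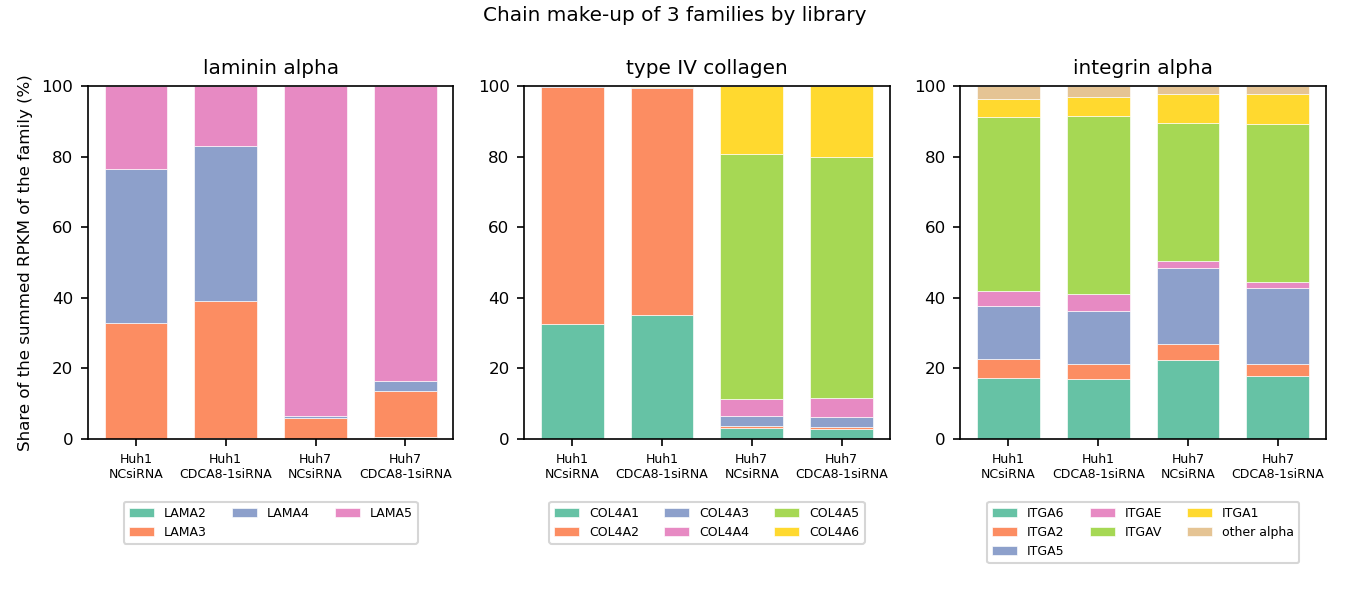
Share of the summed RPKM of a family that each chain supplied, in percent (vertical), as stacked bars for each of the 4 libraries, for laminin alpha, type IV collagen and integrin alpha genes. Chains under 0.05% in every library are left out, and integrin alpha chains under 4% are drawn together. The Huh1 and Huh7 bars hold different chains for the first 2 families, with LAMA5 at 93.6% and 83.7% in Huh7, while for integrins ITGAV is the largest part of each bar.

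The fibrillar collagens COL1A1 and COL1A2 gave the largest log2 differences between the lines, 6.71 and 5.41. Next came COL4A5, COL14A1 and COL12A1, which are not fibrillar, with 4.51, 4.24 and 4.01. Apart from COL5A2 and COL12A1, each gene named here reached 1 RPKM only in the line where it was high, and so had to differ. COL1A1 stood at 0.115 and 0.122 RPKM in Huh1, on about 21 reads in all, against 107 and 125 RPKM in Huh7. COL1A2 stood at 0.0138 and 0.0280 RPKM in Huh1 against 31.4 and 56.9 RPKM in Huh7, COL3A1 at 0 and 0.0414 RPKM against 1.89 and 4.14 RPKM, and COL11A1 at 0 and 0.0208 RPKM against 9.18 and 15.3 RPKM. COL5A2 was 10.4 times as high in Huh7 as in Huh1, whereas its partner COL5A1 stood at 2.45 and 3.42 RPKM in Huh1 and at 0.0130 and 0 RPKM in Huh7. COL12A1 was 30.6 times as high in Huh7. COL14A1 was at 18.1 and 18.4 RPKM in Huh7 against 0.0347 and 0 RPKM in Huh1. COL6A1, of the beaded filament collagens, was at 1.32 and 1.25 RPKM in Huh7 and at 0.0796 and 0.0718 RPKM in Huh1.

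The summed level of markers of fibroblasts or stellate cells was higher in Huh7 than in Huh1, as was that of the fibrillar collagens. Of 6 such markers, 1 reached 1 RPKM in each Huh1 library, 2 in Huh7 with NCsiRNA and 3 in Huh7 with CDCA8-1siRNA, and their summed level was 12.0 and 25.7 RPKM in Huh1 and 159 and 202 RPKM in Huh7. Lumican, LUM, gave most of this sum. THY1 stayed at or under 0.00489 RPKM, DCN at or under 0.406 RPKM and PDGFRB at or under 0.400 RPKM in every library. ACTA2 stood at 0.720 and 1.055 RPKM in Huh7. PDGFRA stood at 15.3 and 10.1 RPKM in Huh7, lower with CDCA8-1siRNA, unlike LUM. The part of these genes in the collagen differences was not tested.

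Among the integrins, ITGB1, ITGA5, ITGA6 and ITGA1 were called higher in Huh7, with log2 differences of 1.06, 1.52, 1.24 and 1.59. ITGB4, which joins ITGA6 in hemidesmosomes, stood at 1.70 and 2.13 RPKM in Huh1 against 0.236 and 0.179 RPKM in Huh7. It reached 1 RPKM only in Huh1, so its call as lower in Huh7 is of the kind that had to differ. ITGAV, ITGB5 and ITGA2 were higher in Huh7 by 0.79, 0.69 and 0.64 on the log2 scale, under the 2-fold required. ITGB1 gave 83.8% and 83.4% of integrin beta RPKM in Huh1 and 88.2% and 87.6% in Huh7. The log2 difference of NTN4 between the lines was -0.69, also under 2-fold.

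Other genes of the same pathways were counted from lists that were chosen with results of these data known. For collagen biosynthesis, 0 of 17 tested genes rose and 1 fell with CDCA8-1siRNA, by limma over both lines at an adjusted p under 0.05, beside 6.03% of all genes that rose and 10.2% called in either direction. That gene was TGM2, a crosslinking transglutaminase, at 43.5 and 36.9 RPKM in Huh1 and 15.5 and 8.19 RPKM in Huh7. Of 8 other matrix proteins tested, 3 rose and 0 fell. LUM, a collagen-binding proteoglycan that is also on the fibroblast list above, stood at 12.0 and 25.7 RPKM in Huh1 and at 143 and 190 RPKM in Huh7. THBS1, the adhesive protein thrombospondin-1, stood at 64.0 and 130 RPKM in Huh1 and at 154 and 182 RPKM in Huh7, and AGRN, the basement membrane proteoglycan agrin, at 15.5 and 22.4 RPKM in Huh1 and 55.5 and 68.4 RPKM in Huh7. Their log2 fold changes over both lines were 0.72 for LUM, 0.62 for THBS1 and 0.40 for AGRN (adjusted p = 0.0130, 0.0320 and 0.0338, limma).

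For the adapters and kinases of integrin adhesion sites, 4 of 20 tested genes rose and 1 fell, to be read beside the same shares of 6.03% and 10.2% of all genes. ILK, a scaffold at the integrin tail, rose by 0.48 on the log2 scale (standard error 0.0916, adjusted p = 0.0143 by limma). FLNA, an actin crosslinker, rose by 0.44 (standard error 0.105, adjusted p = 0.0324 by limma), and ZYX, zyxin, fell by 0.63 (standard error 0.154, adjusted p = 0.0340 by limma). Of 8 non-integrin matrix receptors tested, 0 rose and 0 fell, and the same held for the 1 netrin receptor that could be tested. The median log2 fold change was 0.01 for collagen biosynthesis, 0.15 for the matrix proteins, 0.12 for integrin adhesion and 0.02 for the non-integrin receptors, beside 0.03 for all genes, and the tested netrin receptor had -0.26.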

How the data were processed

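RNA was prepared with the Illumina TruSeq RNA kit. The submitters' processing notes name CASAVA 1.8.2, TopHat2 2.0.9 and hg19, while the counting tool, strand setting and filters are not given in the sources used here. Each deposited table lists 18398 RefSeq transcripts with 1 value each and states no unit. The values that the authors deposited were treated as RPKM, scaled by them to transcript length and depth. Read numbers were estimated with lengths from GENCODE release 29 (18211 rows, all 85 genes) that can differ from those of the authors: 32.2% to 35.3% of values of up to 10 reads were whole within 0.05 of a read. They are approximate and served only for counting SDs and intervals.

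Fold changes were differences of log2(RPKM + 1). Within a line, genes with at least 1 RPKM in 1 of its libraries were compared and called at 2-fold, the study's threshold, without a test. All 4 libraries entered each limma fit (version 3.58.1, R 4.3.3), with a mean-variance trend, 1 residual degree of freedom and Benjamini-Hochberg adjustment over all genes tested. The siRNA was fitted with the line as covariate (10357 genes with 1 RPKM in each line) and the line with the siRNA as covariate (12148 genes with 1 RPKM in any library). The steps were tested on simulated data. With 1 library a condition, p-values measure only the spread between these libraries.

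Genes called in any comparison or reaching 10 RPKM, NTN1 and NTN4 were named (36), of which 1 laminin gene is counted but not reported here. The set and the lists were chosen with earlier results of these data known. Of the 85 genes, 59 had an entry in the RefSeq promoter table (GRCh38.p14). Alternatives were another pseudocount, other minimum values, quantile and upper quartile scaling, other covariates, no trend and the libraries of 1 siRNA alone, of which the CDCA8-1siRNA libraries alone were added after seeing the data.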

Additional observations from a re-analysis of the deposited data

Results flagged for a closer look

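For some named genes of the set the change with CDCA8-1siRNA had opposite signs in Huh1 and Huh7. Those with at least 1 RPKM in each line were looked at again. Each difference is the log2 fold change in Huh7 minus that in Huh1, from 1 library per condition, and was not tested. For COL16A1 it was 0.53, from -0.26 in Huh1 and 0.27 in Huh7. For LAMA5 it was 0.21, from -0.12 and 0.09, and for ITGA5 it was 0.20, from -0.02 and 0.18. For ITGB1 it was -0.15, from 0.13 in Huh1 and -0.01 in Huh7, and with quantile normalization the Huh7 value was 0.09 and the signs were alike. ITGAE, which the naming rule left out, also had opposite signs, with 0.12 and -0.10, a difference of -0.22. The counting SD of a single log2 fold change was 0.0807 and 0.0601 for COL16A1 in Huh1 and Huh7, 0.0614 and 0.0329 for LAMA5, 0.0594 and 0.0373 for ITGA5 and 0.0205 and 0.0148 for ITGB1.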

How the results depend on the processing

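Leaving out a library was not possible with 1 per condition. No replicate block was run, because the labels carry no replicate numbers. The cell lines served as blocks in the siRNA fit. With 0.1 RPKM added, the genes at least 2-fold were 2 in Huh1 (NTN4 higher and ITGAL lower) and 6 in Huh7 (NTN4, LAMA3, NTN1, COL3A1 and COL28A1 higher and COL2A1 lower), of which ITGAL, COL28A1 and COL2A1 were named after their values were seen. In Huh7, 1 gene was left with a minimum of 5 RPKM, which removes LAMA3, and 0 with quantile normalization, where NTN4 and LAMA3 came to 0.99. For the siRNA over both lines, limma called 0 genes of the set without a minimum (11 at an unadjusted p under 0.05) and 0 without the cell line covariate (1 at an unadjusted p under 0.05), while the other alternatives gave 3 to 5; the cause for the fit without a minimum was not tested. Between the lines, 10 were called when only genes with 1 RPKM in each line were tested, which leaves 24 of 48, and 21 to 34 under the other alternatives. Quantile normalization moved the median of all genes between the lines from 0.14 to 0.01 and gave 18 genes of the set higher and 9 lower in Huh7, against 20 and 7. It also moved the share of higher genes among all 2-fold genes in Huh1 from 64.8% to 52.4%. Signs turned for COL16A1 with the siRNA (-0.0067 with 0.1 RPKM added and -0.012 with quantile normalization), for LAMB1 between the lines (-0.030 with upper quartile scaling and -0.16 with the NCsiRNA libraries alone), and for NTN1 between the lines (0.19 with the CDCA8-1siRNA libraries alone, added after seeing the data). Within Huh7, where no change near 0 was called, signs turned for COL18A1 (0.031 with quantile normalization and 0.012 with upper quartile scaling), COL9A2 (-0.0057 with quantile normalization) and ITGB1 (0.087 with quantile normalization). Of 750 values of single genes under an alternative, 715 kept their sign and side or stayed within the counting SD, 15 moved beyond it, 13 lost a call, 2 gained a call and 5 turned in the comparisons over both lines or between them.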

Other observations

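Several laminin, collagen and integrin genes under 1 RPKM had more reads in the CDCA8-1siRNA library of Huh7 than in its control. They entered no comparison of the siRNAs in Huh7 or over both lines, and were picked after their values were seen. LAMA4 was compared in Huh1, with a log2 fold change of 0.30 there. In Huh7, LAMA4 went from about 11 to 65 reads, a ratio of 5.95 with an exact 95% counting interval from 3.08 to 12.4. LAMB4 went from about 1 to 29 reads (interval of the ratio 4.78 to 1178), ITGB8 from about 3 to 28 reads (2.87 to 47.7) and LAMA2 from about 1 to 15 reads (2.30 to 628). COL17A1, a transmembrane collagen of hemidesmosomes, went from about 2 to 20 reads (2.42 to 87.7) and COL24A1 from about 15 to 42 reads (1.51 to 5.41). The intervals cover counting error only and rest on approximate read numbers.

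Other low genes of the set did not follow. In the same libraries of Huh7, COL8A2 went from about 32 to 9 reads (interval of the ratio 0.117 to 0.600), COL4A1 from about 72 to 75 (0.740 to 1.45) and COL4A2 from about 14 to 17 (0.560 to 2.65). Of 18 genes of the set under 1 RPKM in Huh7 with at least 10 reads in either library, 14 had a higher level with CDCA8-1siRNA, while 64.8% of all 1274 such genes did. In Huh1, 7 of 7 did, while 59.8% of 1218 did. ITGAL, the alpha chain of the leukocyte integrin LFA-1, was lower with CDCA8-1siRNA in both lines, at 0.334 of its control level in Huh1 and 0.477 in Huh7, on about 50 and 24 reads in Huh7 (interval of the ratio 0.281 to 0.791). PTPRC, the pan-leukocyte marker, was at or under 0.417 RPKM in every library.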
